A study of Homo sapiens with 4 samples.

Results

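PBX3 and the other TALE homeobox genes were followed by RNA sequencing in LNCaP, an androgen-sensitive human prostate carcinoma line from a lymph node metastasis. The genes were chosen by symbol from a list of 9: PBX2, PBX3, PBX4, MEIS1, MEIS2, MEIS3, PKNOX1, TGIF1 and TGIF2. Of these, 8 were among the 17902 genes of the deposited table and 7 of the 16194 genes tested. MEIS2 was not analysed here, and MEIS3 had too few counts to be tested. The samples were 2 libraries of LNCaP cells with ETV5 overexpression (ETV5_OE) and 2 libraries of Control LNCaP cells labelled wild type (WT). ETV5 is an ETS-family transcription factor. The labels give no vector, clone, culture time or treatment, and do not say what separates the 2 libraries of a group, so the p-values reflect library-to-library spread, possibly technical, and not spread over cultures. The comparison asks which of these genes differ when ETV5 is raised, in a study of therapy-induced neuroendocrine prostate cancer.

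TALE homeodomain proteins carry extra residues in a loop of the DNA-binding homeodomain. PBX proteins bind DNA together with HOX proteins and with MEIS or PKNOX proteins, and the MEIS and PKNOX partners help to keep PBX proteins in the nucleus and stable. TGIF proteins are repressors of the same class that recognise a site like that of MEIS and PKNOX and restrain SMAD-dependent transcription downstream of TGF-beta. HOXB13 is a HOX protein of prostate epithelium, a marker of the luminal lineage, and binds MEIS proteins.

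The start of PBX3 is shown beside those of its paralog PBX2 and its partner MEIS1, because an ETS factor was the agent raised and PBX3 was the member with the clearest difference. Each sequence is the 250 bases before the start used in the RefSeq promoter windows (GRCh38.p14), 5′ to 3′ on the gene's strand. PBX3 is on the plus strand (chr9:125747933-125748182), PBX2 on the minus strand (chr6:32190203-32190452) and MEIS1 on the plus strand (chr2:66434875-66435124). For PBX2 and MEIS1 that start is the first base of the annotated gene. For PBX3 it lies 810 bases inside the annotated gene, whose first base is 125747373, so the printed PBX3 stretch begins 560 bases inside the gene and is not the sequence before its outermost start. Capitals mark the ETS core GGAA and the MEIS, PKNOX and TGIF type site TGACAG, on either strand (TTCC and CTGTCA when read on the other).
PBX3: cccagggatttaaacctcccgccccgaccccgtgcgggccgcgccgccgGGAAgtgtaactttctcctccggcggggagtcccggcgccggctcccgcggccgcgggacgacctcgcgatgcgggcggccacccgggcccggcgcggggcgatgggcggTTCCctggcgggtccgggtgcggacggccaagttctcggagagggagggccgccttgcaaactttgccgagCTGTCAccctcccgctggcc
PBX2: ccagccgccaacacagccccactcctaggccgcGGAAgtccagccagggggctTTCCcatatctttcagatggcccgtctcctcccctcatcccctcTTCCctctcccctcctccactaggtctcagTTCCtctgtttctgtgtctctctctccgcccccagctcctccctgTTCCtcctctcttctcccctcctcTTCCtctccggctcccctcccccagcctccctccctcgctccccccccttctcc
MEIS1: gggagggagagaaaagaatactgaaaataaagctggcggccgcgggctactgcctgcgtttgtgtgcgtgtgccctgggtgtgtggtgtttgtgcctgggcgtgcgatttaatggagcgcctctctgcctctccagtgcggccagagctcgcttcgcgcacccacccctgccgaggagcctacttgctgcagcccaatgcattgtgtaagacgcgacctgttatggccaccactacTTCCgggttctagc

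Motifs were counted on both strands in windows from 250 bases before to 50 after each start, and RefSeq windows were found for all 9 genes, 18 windows in all. The longer ETS type site CCGGAA, which contains GGAA, was in 6 of the 18 windows, against 17.2% of all 35116 windows of that length. Those 6 windows came from 4 of the 9 genes and held 5 distinct sites: 3 of them were TGIF1 windows, and a pair of these overlap and hold the same site, so the shares are not over independent windows. The PBX3 window held no CCGGAA and 2 GGAA cores, at positions -201 and -91 (the base before the start is -1, and a position is the motif's leftmost base). GGAA alone was in 95.5% of all windows. The MEIS1 window held 1 CCGGAA, at position -14, and the PBX2 window none but 6 GGAA cores. TGACAG was in the PBX3 window at position -20, and in 15.8% of all windows. The PBX type site TGATTGA was in none of the 18 windows and in 2.1% of all windows. These matches describe the letters only, and no binding was measured.

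Total counts were 22369062 and 24642392 in the ETV5_OE libraries, and 30227070 and 20639543 in the Control libraries. ETV5 had 534 and 522 counts in the ETV5_OE libraries and 22 and 27 in the Control libraries, as the labels state. ETV1, an ETS factor of the same subgroup, averaged 28.8 CPM in ETV5_OE and 318 CPM in Control (edgeR adjusted p = 0.00150), so a difference between the groups with higher ETV5 or with lower ETV1 cannot be told apart. All 10 luminal prostate markers listed were in the table, led by KLK3, and their summed level was 5322 and 5878 CPM in ETV5_OE and 7498 and 7884 CPM in Control. Of the 10, 6 had an unadjusted p under 0.05, against 7.14% of all genes tested, and 6 were lower in ETV5_OE without overlap between the groups, against 18.8% of all genes. The median log2 fold change of the markers was -0.64, with KRT8, KRT18 and FOLH1 above 0. TRPM8, a cation channel gene regulated by androgen, was the 1 called, where 0.401% of all genes tested were. It fell to 4.48 and 3.01 CPM in ETV5_OE, against 21.4 and 16.7 CPM in Control (log2 fold change -2.35, SE 0.28, edgeR adjusted p = 0.0202). That call was lost in 7 of 16 alternatives, among them leaving out ETV5_OE replicate 1 (adjusted p = 0.185) or ETV5_OE replicate 2 (0.286). None of the 5 basal epithelium markers listed was analysed here. Of the 7 neuroendocrine markers listed, 2 were tested and neither was called. ENO2 had 10.9 and 9.60 CPM in ETV5_OE and 22.1 and 15.4 CPM in Control (edgeR adjusted p = 0.345). It was lower in ETV5_OE without overlap, as were 18.8% of all genes tested, and SYP overlapped. The 6 of 10 fibroblast and smooth muscle markers in the table summed to 91.0 CPM in ETV5_OE replicate 1 and 15.2 CPM in ETV5_OE replicate 2, and to 16.5 and 16.8 CPM in the Control libraries. CPM is the count relative to library size after TMM scaling between libraries, and it does not separate RNA per cell from the make-up of the cells.

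Both ETV5_OE libraries had more PBX3 RNA than both Control libraries, but the difference did not pass the threshold over all genes. PBX3 (gene ID 5090; chromosome 9, 125747373 to 125967377, GRCh38) had 460 and 525 counts in ETV5_OE, or 20.6 and 21.9 CPM. It had 406 and 247 counts in Control, or 13.2 and 11.8 CPM. The groups did not overlap, and the gap between them was several times the spread within either. The log2 fold change was 0.76 (SE 0.19, 95% interval 0.32 to 1.21; edgeR adjusted p = 0.276), a 1.70-fold higher level in ETV5_OE. By unadjusted p it stood at rank 241 of 16194 genes, within the top 1.49%. In the authors' deposited table, which holds unadjusted p-values, PBX3 has a signed fold of 1.55 and p = 0.0102, and 102 of 17902 genes have a p at or under that value. PBX3 was chosen for description with its values in these libraries known, so its difference is not independent evidence.

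Over the 7 members tested none was called at an adjusted p under 0.05 by edgeR, where 0.401% of all genes tested were called; DESeq2 and limma-voom also called none. At an unadjusted p under 0.05 PBX3 alone passed, against 7.14% of all genes. PBX3 and PBX2 did not overlap between the groups and were higher in ETV5_OE, 2 of 7 members. Over all genes tested 37.6% did not overlap, 18.8% higher and 18.8% lower, so the members' share is near that background. The median log2 fold change was 0.13 over the members and 0.0044 over all genes tested, with 6 of 7 members above 0.

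**Figure D1:**
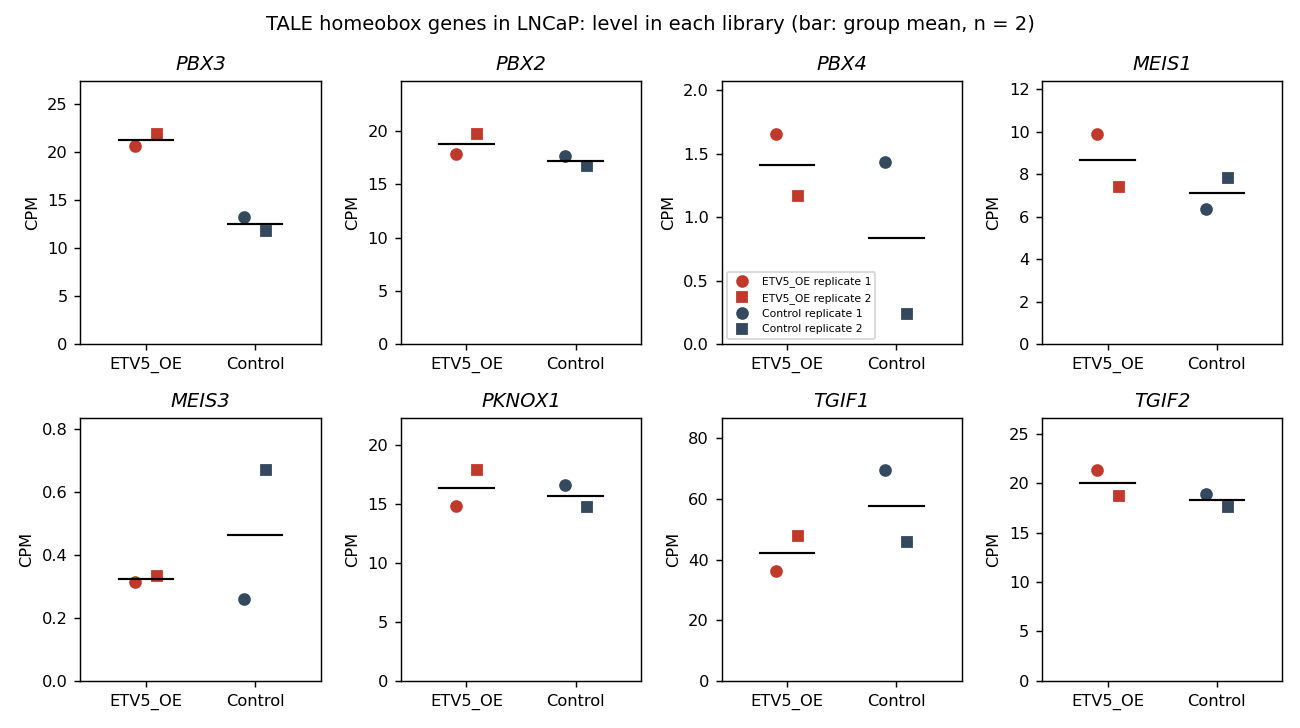
Level (CPM, linear axes starting at 0) of the 8 members in each library, ETV5_OE left and Control right; points are libraries and bars group means (n = 2). PBX3 separates the groups most clearly at 20.6 and 21.9 against 13.2 and 11.8 CPM, while PBX4, MEIS3 and TGIF1 have 1 Control library apart from the other.

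PBX2, the most widely expressed PBX paralog, was nearly level (gene ID 5089; chromosome 6, 32184733 to 32190202). It had 17.8 and 19.7 CPM in ETV5_OE, against 17.6 and 16.7 CPM in Control. The groups did not overlap, but the lowest ETV5_OE library and the highest Control library were nearly equal. Its log2 fold change was 0.13 (SE 0.19, 95% interval -0.30 to 0.56; edgeR adjusted p = 0.947). The point estimate of PBX3, 0.76, lay outside that interval, but the interval of PBX3, 0.32 to 1.21, overlaps it. A pseudogene copy, PBX2P1, had 10 and 16 counts in ETV5_OE and 18 and 7 in Control, few beside the 351 to 540 counts of PBX2.

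PBX4, a paralog best known from testis, was close to the limit of detection (gene ID 80714; chromosome 19, 19561713 to 19618687). It had 37 and 28 counts in ETV5_OE (1.66 and 1.17 CPM), against 44 and 5 counts in Control (1.44 and 0.239 CPM). Control replicate 1 lay between the ETV5_OE libraries and Control replicate 2 far below them. The log2 fold change was 0.70 with a 95% interval from -1.08 to 2.49 (edgeR adjusted p = 0.924). It was 2.54 without Control replicate 1 and -0.023 without Control replicate 2, so the size of the difference in PBX4 rests on that pair.

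The partner genes gave no call. MEIS1, a PBX partner and a progenitor factor in blood and neural tissue, had 9.91 and 7.39 CPM in ETV5_OE and 6.36 and 7.83 CPM in Control (gene ID 4211; chromosome 2, 66435125 to 66573869). The groups overlapped, with the highest value in ETV5_OE replicate 1. Its log2 fold change was 0.29 (SE 0.28, 95% interval -0.35 to 0.93; edgeR adjusted p = 0.908), and 0.058 without ETV5_OE replicate 1. That library also had the high sum of fibroblast and smooth muscle markers given above, and their part in the MEIS1 value was not tested. Most of the sum came from the collagen genes COL1A2, COL1A1 and COL3A1, at 41.4, 27.0 and 15.5 CPM there. The smooth muscle markers did not follow alike. ACTA2 was highest in Control replicate 1 (3.85 CPM, against 1.93 CPM in ETV5_OE replicate 1). TAGLN had 3.09 CPM in ETV5_OE replicate 1 and 2.72 CPM in Control replicate 2. MEIS3, a paralog of MEIS1, had 7 and 8 counts in ETV5_OE and 8 and 14 in Control (gene ID 56917; chromosome 19, 47403124 to 47422233), below the expression filter.

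PKNOX1, also called PREP1, is the other kind of PBX partner (gene ID 5316; chromosome 21, 42974562 to 43033931). It had 14.9 and 17.9 CPM in ETV5_OE and 16.7 and 14.8 CPM in Control. The groups overlapped fully, with a log2 fold change of 0.057 (SE 0.20, 95% interval -0.41 to 0.53; edgeR adjusted p = 0.980). The sign of this small difference turned without Control replicate 2 (-0.025) and without ETV5_OE replicate 2 (-0.086).

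**Figure D2:**
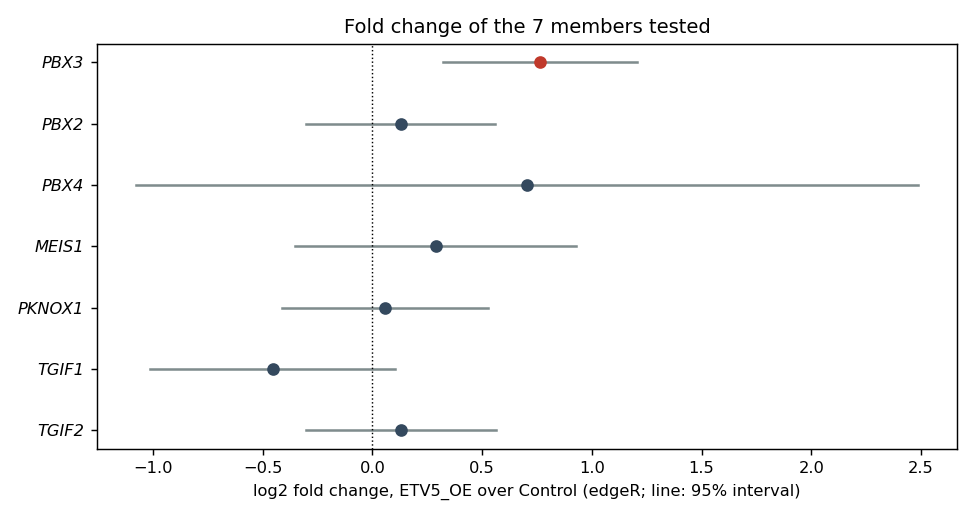
Log2 fold change of ETV5_OE over Control for the 7 members tested with edgeR (points) and the 95% interval (lines), with 0 dotted. The interval of PBX3 (0.32 to 1.21) is the 1 that does not reach 0, before any adjustment over genes, and that of PBX4 is the widest.

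Neither repressor gene gave a call. TGIF1 (gene ID 7050; chromosome 18, 3412009 to 3459978) was the member with the highest level in all 4 libraries. It had 36.3 and 47.7 CPM in ETV5_OE and 69.4 and 45.7 CPM in Control, with Control replicate 1 above the other 3 libraries. The groups overlapped, and the log2 fold change was -0.45 (SE 0.24, 95% interval -1.01 to 0.10; edgeR adjusted p = 0.790). It was -0.12 without Control replicate 1 and -0.72 without Control replicate 2. TGIF2 (gene ID 60436; chromosome 20, 36573464 to 36593950) had 21.3 and 18.7 CPM in ETV5_OE and 18.9 and 17.6 CPM in Control. Its log2 fold change was 0.13 (SE 0.19, 95% interval -0.30 to 0.56; edgeR adjusted p = 0.947), and its groups overlapped. The difference between the fold changes of TGIF1 and TGIF2 was not tested.

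On the FPKM scale, which divides by transcript length and so allows levels of different genes to be compared, PBX3 held another place among the members in each group. In ETV5_OE it had 6.98 and 7.28 FPKM, second to TGIF1 (17.8 and 22.9 FPKM) and ahead of PBX2 (5.25 and 5.67 FPKM) and TGIF2 (6.03 and 5.11 FPKM). In Control it had 4.53 and 4.17 FPKM and was at rank 4, behind TGIF1 (38.6 and 25.4 FPKM), TGIF2 (5.44 and 5.05 FPKM) and PBX2 (5.27 and 5.02 FPKM). This change of place restates the uncalled PBX3 difference given above and is not a separate result. Within ETV5_OE, PBX2 and TGIF2 exchanged places between the libraries, and in Control they were close to each other. PKNOX1 was at rank 5 (2.67 and 3.12 FPKM in ETV5_OE, 3.04 and 2.70 FPKM in Control) and MEIS1 at rank 6 (2.06 and 1.498 FPKM in ETV5_OE, 1.34 and 1.66 FPKM in Control) in all 4 libraries. PBX4 and MEIS3 stayed below 1 FPKM throughout.

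Ratios within a library do not depend on how libraries are scaled. The FPKM of PBX3 was 1.33 and 1.28 times that of PBX2 in ETV5_OE, against 0.860 and 0.831 times in Control. The mean log2 ratio was 0.39 ± 0.03 in ETV5_OE and -0.24 ± 0.04 in Control (SD, n = 2 each), a difference of 0.63, or 1.55-fold. The exact two-sided permutation test gave p = 0.333, the smallest that 2 libraries against 2 allow. With PKNOX1 in place of PBX2 the ratio was 2.61 and 2.33 in ETV5_OE, against 1.49 and 1.55 in Control. With TGIF2 it was 1.16 and 1.42 in ETV5_OE, against 0.833 and 0.826 in Control. With TGIF1 it was 0.392 and 0.318 in ETV5_OE, against 0.117 and 0.164 in Control, a 2.54-fold difference. Part of that difference comes from the implied transcript length of TGIF1, 1.11 times as long in ETV5_OE and described below, which lowers its FPKM there.

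The ratio to MEIS1 barely separated the groups, at 3.39 and 4.86 in ETV5_OE and 3.38 and 2.52 in Control. The ratio to PBX4 overlapped. The ratio to MEIS3 was 64.4 and 62.7 in ETV5_OE, against 39.0 and 15.5 in Control. It rests on 7 to 14 counts of MEIS3, below the expression filter. In all, 6 of 7 ratios, that to MEIS3 among them, were higher in ETV5_OE without overlap, each with the same exact p of 0.333. They share PBX3 as numerator and so are not separate results. The share of such ratios over all genes was not computed.

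**Figure D3:**
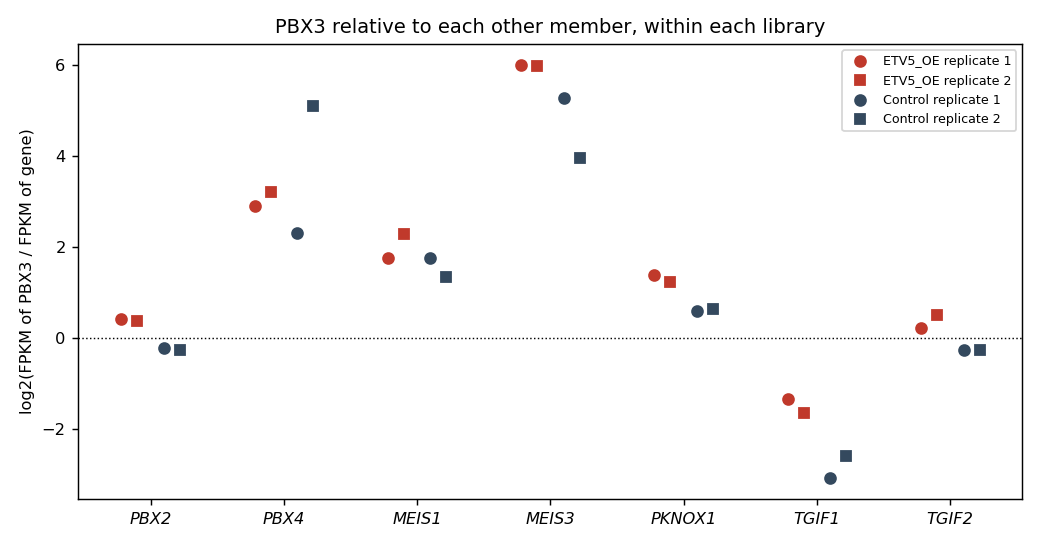
Log2 ratio of the FPKM of PBX3 to that of each other member, per library, ETV5_OE points left of Control points for each gene. For PBX2, TGIF2, PKNOX1 and TGIF1 both ETV5_OE libraries lie above both Control libraries, and against PBX2 the ratio is 1.33 and 1.28 in ETV5_OE and 0.860 and 0.831 in Control.

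TGIF1 also differed in the transcript length implied by its deposited values, that is its count divided by its FPKM and by the library's total count. The implied length was 2.03 and 2.03 kb in ETV5_OE, against 1.82 and 1.83 kb in Control. The groups did not overlap and the libraries of each group were nearly equal. The length was 1.11 times as long in ETV5_OE. Partly as a result, the FPKM of TGIF1 was further apart (20.3 ± 3.58 in ETV5_OE and 32.0 ± 9.34 in Control, SD, n = 2 each) than its CPM (42.0 ± 8.07 in ETV5_OE and 57.5 ± 16.8 in Control). The 2 measures also differ in scaling, as TMM was applied to CPM and not to the deposited FPKM.

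TGIF1 has the most listed transcripts of the 8 members in the table, 14 RefSeq entries, of which 11 matched GENCODE release 29 transcripts from 990 to 3030 bases long, and 7 annotated start windows. Among genes with a mean count of 100 or more, 4.97% had implied lengths that did not overlap between groups and differed at least 1.1 times, a rule chosen after the values were seen. Among the 6 members with such counts TGIF1 was the 1 past it. For PBX3 the implied length was 2.95 and 2.93 kb in ETV5_OE and 2.96 and 2.87 kb in Control, overlapping. The scale is relative: PBX2, with 1 listed transcript of 3205 bases, gave 3.39 kb in every library.

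**Figure D4:**
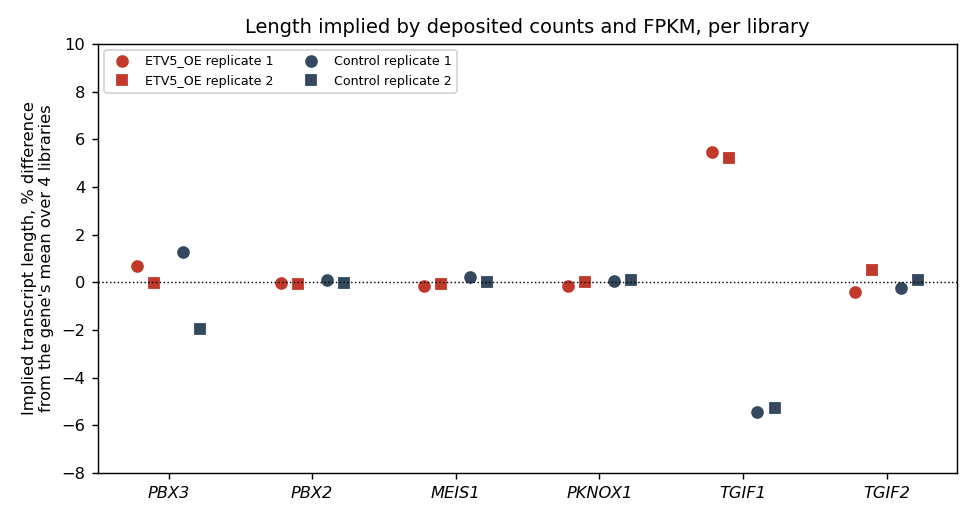
Transcript length implied by deposited counts and FPKM for the 6 members with a mean count of 100 or more, as percent difference from each gene's mean over the 4 libraries. TGIF1 alone separates the groups widely, with about 2.03 kb in both ETV5_OE libraries and about 1.82 kb in both Control libraries.

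Of the 15 genes tested within 1 Mb of PBX3, 1 was called, where 0.401% of all genes tested were. Of the 15, 3 were higher in ETV5_OE without overlap and 1, RALGPS1, was lower without overlap, where 18.8% of all genes were higher and 18.8% lower. The median log2 fold change was 0.16, with 11 of the 15 above 0. The nearest, MAPKAP1, a subunit of the mTORC2 complex 40.2 kb away, had 88.3 and 97.6 CPM in ETV5_OE and 78.8 and 86.6 CPM in Control (log2 fold change 0.17, SE 0.14, edgeR adjusted p = 0.887). On the other side MVB12B, a subunit of the ESCRT-I sorting complex 359.5 kb away, had 8.34 and 6.72 CPM in ETV5_OE and 11.3 and 7.16 CPM in Control. ARPC5L, a subunit of the actin-nucleating Arp2/3 complex 869.6 kb away, rose to 49.0 and 45.3 CPM in ETV5_OE, against 23.8 and 20.9 CPM in Control (log2 fold change 1.08, SE 0.17, edgeR adjusted p = 0.0477). That call was near the threshold and was lost in 12 of 16 alternatives, among them leaving out Control replicate 2 (adjusted p = 0.0759), ETV5_OE replicate 1 (0.609) or ETV5_OE replicate 2 (0.381), and with the replicate block (0.0596). ARPC5L, MAPKAP1, MVB12B and RALGPS1 were named after their values were seen.

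**Figure D5:**
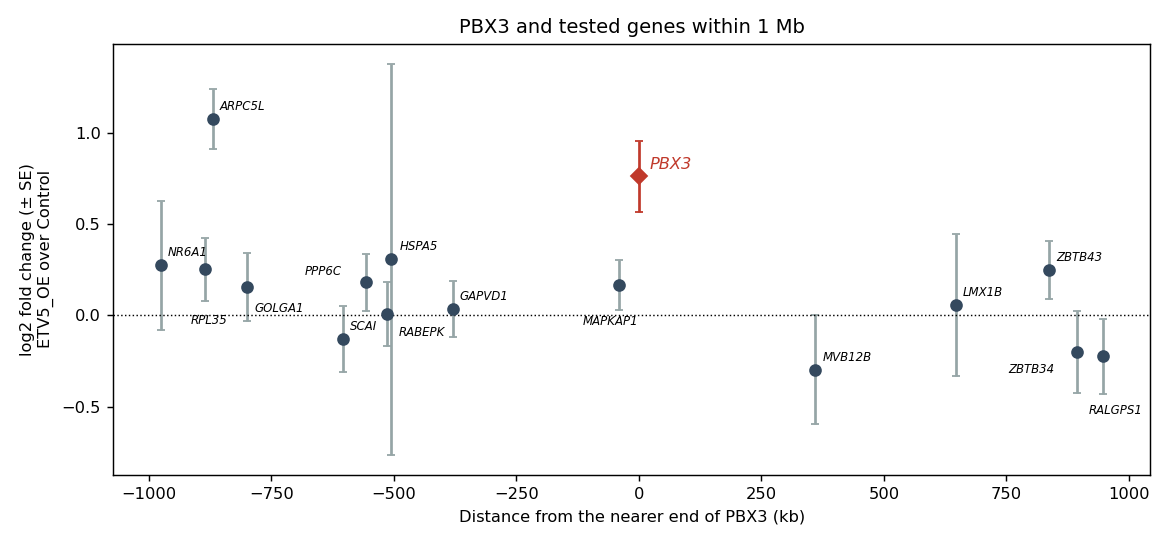
Log2 fold change of ETV5_OE over Control (± SE, edgeR) for PBX3 and the 15 genes tested within 1 Mb, against distance in kb from the nearer end of PBX3, lower chromosome positions to the left. PBX3 at 0.76 and ARPC5L at 1.08 stand above the rest, and MAPKAP1, the nearest gene, is at 0.17.

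Over the 4 libraries, the 5 profiles nearest to that of PBX3 among 10582 protein coding genes with at least 5 CPM were AP2S1, PKIB, MPST, NUDT8 and IKZF3. Likeness was the Euclidean distance between centred log2 CPM profiles, from 0.0724 for AP2S1 to 0.115 for IKZF3. AP2S1, the small subunit of the AP-2 clathrin adaptor, had 84.9 and 94.7 CPM in ETV5_OE and 57.9 and 51.6 CPM in Control (log2 fold change 0.71, SE 0.15, edgeR adjusted p = 0.132). PKIB, a protein kinase A inhibitor, had 67.2 and 78.6 CPM in ETV5_OE and 44.1 and 40.7 CPM in Control (edgeR adjusted p = 0.116). Because the profiles were chosen for matching the group difference of PBX3, their fold changes and p-values restate that choice and are given as a description. None of the 5 was called by edgeR, while DESeq2 called AP2S1 (adjusted p = 0.0211), PKIB (0.0103) and MPST (0.0442).

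Of 39 HOX genes, a family that includes DNA-binding partners of PBX and of MEIS, 12 were in the table and 11 tested. None was called by edgeR, where 0.401% of all genes tested were. An unadjusted p under 0.05 was found for 1, against 7.14% of all genes tested. The median log2 fold change was 0.30, with 3 genes higher and 3 lower without overlap, where 18.8% of all genes tested were higher and 18.8% lower. HOXB13, named for its level, was by far the most abundant at 188 and 244 CPM in ETV5_OE and 252 and 234 CPM in Control, overlapping. HOXC6, of the HOXC cluster on chromosome 12, had 10.2 and 10.9 CPM in ETV5_OE and 6.78 and 7.06 CPM in Control (log2 fold change 0.61, SE 0.24, edgeR adjusted p = 0.625). HOXC13 (8.43 and 9.14 CPM in ETV5_OE, 5.87 and 6.44 CPM in Control) and HOXC9 (4.80 and 5.01 CPM in ETV5_OE, 3.72 and 2.34 CPM in Control), of the same cluster, were also higher without overlap. HOXC5 lies in that cluster too and was picked for its opposite direction. It had 0.672 and 0.543 CPM in ETV5_OE and 1.08 and 1.15 CPM in Control. The other tested genes of the cluster overlapped: HOXC12 had 1.21 and 1.71 CPM in ETV5_OE and 1.53 and 0.811 CPM in Control. HOXC4 had 1.48 and 0.710 CPM in ETV5_OE and 2.02 and 0.382 CPM in Control. HOXC4, HOXC5 and HOXC6 overlap in the annotation, so the assignment of reads among them is uncertain.

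Of the other TALE genes and the PBX-binding protein gene PBXIP1, 7 of 10 were in the table and tested. None was called, where 0.401% of all genes tested were. None had an unadjusted p under 0.05, against 7.14% of all genes tested. Their median log2 fold change was -0.028. PBXIP1, whose product holds PBX proteins off DNA, had 40.3 and 35.9 CPM in ETV5_OE and 29.3 and 33.4 CPM in Control (edgeR adjusted p = 0.813). It was higher without overlap, as were 18.8% of all genes tested. IRX2 (0.852 and 2.63 CPM in ETV5_OE, 1.83 and 4.63 CPM in Control) and IRX6 (1.70 and 0.751 CPM in ETV5_OE, 1.57 and 1.81 CPM in Control), Iroquois homeobox genes, overlapped.

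Of 18 TGIF partners and SMAD pathway genes, 15 were in the table and 14 tested. None was called by edgeR, where 0.401% of all genes tested were. An unadjusted p under 0.05 was found for 2, against 7.14% of all genes tested. Without overlap 3 were higher and 4 lower, where 18.8% of all genes tested were higher and 18.8% lower. The median log2 fold change was -0.036. PMEPA1, a TGF-beta and androgen induced inhibitor of SMAD signalling, was lower, with 49.4 and 47.3 CPM in ETV5_OE and 83.6 and 108 CPM in Control (log2 fold change -0.99, SE 0.16, edgeR adjusted p = 0.0665). DESeq2 called PMEPA1 (adjusted p = 0.000613) and limma-voom did not (0.124). Leaving out each library gave PMEPA1 log2 fold changes from -1.16 to -0.79. ID1, a target of BMP signalling, had 22.9 and 22.1 CPM in ETV5_OE and 6.10 and 13.5 CPM in Control (log2 fold change 1.21, SE 0.37, edgeR adjusted p = 0.503). Its log2 fold change was 0.74 without Control replicate 1 and 1.88 without Control replicate 2, so its size rests on that pair. CDKN2B, a cell cycle inhibitor induced by TGF-beta, had 9.996 and 7.85 CPM in ETV5_OE and 4.34 and 6.87 CPM in Control (edgeR adjusted p = 0.745). PMEPA1 is also androgen regulated, and the summed luminal markers given above were lower in the same libraries; their part in the PMEPA1 value was not tested.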

How the data were processed

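RNA of 4 LNCaP libraries was measured; TRIzol RNA went through TruSeq preparation and paired-end sequencing, per the labels' protocols. The hg38 build, StringTie, HISAT2 and Trimmomatic were used, per the submitters' processing notes; versions and strand setting are not given in the sources used here, so reads of overlapping antisense genes cannot be told apart. Per the file headers, the deposited table holds raw read counts and FPKM per gene, with no pooling. No listed gene lacks reads in any library, so genes at 0 in some library are not analysed here. The authors' group means are on a log2 scale, the authors' signed fold and spread columns are scores with no fixed range, and the deposited p-values are unadjusted.

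The members and lists were chosen with earlier results of these data known. The count test was edgeR 4.0.16 (R 4.3.3): expression filter with minimum count 10 (1708 genes left untested), TMM, robust quasi-likelihood F test of ETV5_OE against Control, and Benjamini-Hochberg adjustment over all genes tested, called under 0.05. SEs came from the fold change and F, and 95% intervals from the SE and the test's degrees of freedom; they are not adjusted over genes. The fit was checked on simulated counts. FPKM ratios used an exact permutation test. Named were all members, up to 3 genes of smallest p per list and the 5 profiles nearest to PBX3. Alternatives were DESeq2 1.42.0, limma-voom and limma 3.58.1 on log2 FPKM, other scalings and filters, a replicate block and leaving out each library. Gene positions are from RefSeq, GRCh38.p14, matched by gene ID, the same assembly as hg38.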

Additional observations from a re-analysis of the deposited data

How the results depend on the processing

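PBX3 was higher in ETV5_OE and uncalled under all 16 alternatives, with log2 fold changes from 0.60 (limma on log2(FPKM + 1)) to 0.85 (without Control replicate 1) and adjusted p from 0.0814 (DESeq2) to 0.999 (without ETV5_OE replicate 1). Leaving out each library gave PBX3 0.68 to 0.85. No alternative called any member. The ratio of PBX3 to PBX2 kept its direction, with differences from 0.53 to 0.65, and 0.60 to 0.65 without each library. Leaving out each library gave PBX4 -0.023 (without Control replicate 2) to 2.54 (without Control replicate 1). It gave PKNOX1 -0.086 (without ETV5_OE replicate 2) to 0.18 (without ETV5_OE replicate 1), with -0.025 without Control replicate 2. Likewise MVB12B ranged from -0.58 to 0.072 (without Control replicate 1), HOXB13 from -0.37 to 0.0043 (without ETV5_OE replicate 1) and IRX6 from -1.16 to 0.010 (without ETV5_OE replicate 2). HOXC12 ranged from -0.067 (without Control replicate 2) to 0.85, and HOXC4 from -0.89 to 1.502 (without Control replicate 1), with 0.26 without ETV5_OE replicate 2, 0.11 with the replicate block, 0.047 with limma-voom and 0.023 with limma on log2(FPKM + 1) with no filter. RALGPS1 was at 0.069 on log2(FPKM + 1), with or without the filter, and 0.099 on log2(FPKM + 0.1). PBX2, MEIS1, TGIF1 and TGIF2 kept their sign under all 16 settings.

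Over all genes, the count of calls, 65 in edgeR with TMM, was 22 without robust estimation, 223 with DESeq2, 38 with limma-voom, 13 with limma on log2(FPKM + 1), 11 on log2(FPKM + 0.1) and 0 on log2(FPKM + 1) with no filter (1243 at an unadjusted p under 0.05). Leaving out each library gave 0 to 238 calls: 238 and 137 without Control replicates 1 and 2, and 0 without either ETV5_OE library (689 and 931 at an unadjusted p under 0.05). In each of these fits, with a Control or an ETV5_OE library left out, the lone library was assumed to vary like the intact group. The cause of the shifts in the count of calls was not tested. Replicate numbers do not pair the samples by any label, and the differences between replicates 1 and 2 in ETV5_OE and in Control correlated at 0.019 over genes. In the sample descriptions, the library names of ETV5_OE replicate 2 and Control replicate 1 share an R suffix whose meaning is not stated. A block pairing those libraries, against the replicate numbers, was not run. With the replicate block, PBX3 stood at 0.77 (adjusted p = 0.312) and 55 genes were called. Counts of PBX4 and MEIS3 are too few to show differences of the size seen in PBX3.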

Other observations

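The pseudogene copies of 2 members were also in the table and were looked at after the members' values were seen. MEIS3P1, a transcribed pseudogene of MEIS3 (chromosome 17, 15786850 to 15789705, GRCh38), had 16 and 3 counts in ETV5_OE and 179 and 76 in Control. That is 0.717 and 0.125 CPM in ETV5_OE against 5.84 and 3.63 CPM in Control, so in Control the copy had more reads than MEIS3 itself. The copy also had more in ETV5_OE replicate 1 (16 counts against 7 of MEIS3) but fewer in ETV5_OE replicate 2 (3 against 8). MEIS3P1 was lower in ETV5_OE without overlap, as were 18.8% of all genes tested. Its log2 fold change was -3.50 (SE 0.70, edgeR adjusted p = 0.151), and it was not called by edgeR. DESeq2 called it (adjusted p = 0.000192), and the log2 fold change ranged from -5.19 to -1.19 over the alternatives. The assignment of reads shared between MEIS3 and its copies is unknown, so values of MEIS3 and MEIS3P1 are uncertain. MEIS3P2 had 7 and 3 counts in ETV5_OE and 1 and 4 in Control.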
